A study of Mus musculus with 6 samples.

Results

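The genes of the mitochondrial respiratory chain and ATP synthase were described in mouse T helper cells. They were taken as every gene whose symbol or synonym begins with Nduf, Uqcr, Cox4, Cox5, Cox6, Cox7, Cox8 or Atp5, together with Sdha, Sdhb, Sdhc, Sdhd and Cyc1. The annotation held 119 such genes, of which 92 had a named probe, among 20289 genes named on the array, and 84 were tested, among 12093 genes tested. The tested genes comprised 33 subunits of complex I, 7 Ndufaf assembly factors of complex I, 3 subunits of complex II, 8 of complex III, 13 of complex IV and 16 of ATP synthase. The other tested genes were the pseudogene Ndufs5-ps and 3 genes reached only through an old synonym, Dmac2, Dmac2l and Emc8, none of them a subunit.

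The cells were Th9, Th1 and Th17 cells, CD4 lymphocyte subsets named for interleukin 9, for type 1 responses with interferon gamma and for interleukin 17. Per the labels, donor T helper cells carrying CD45.1, a surface marker that told them from the cells of the recipient, had been transferred into mice bearing a tumour, and CD45.1+CD4+ cells were sorted from the spleen 12 days later. The labels give C57BL/6 as the strain of all groups, and the sources used here give no age, tumour line or culture condition, nor how many animals stand behind an array. Each group had 2 arrays, the other one labelled only as a repeat, so the p-values measure only how far the arrays of a group lie apart, a spread that may be technical.

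Levels are normalised intensities on the log2 scale, so a difference of 1 is 2-fold, and they compare groups for 1 probe, never genes with each other. A gene was called when its limma p-value, adjusted by the Benjamini-Hochberg method over all 12093 genes, was under 0.05. Th9 was set against Th1 and against Th17, and Th17 against Th1, and these 3 comparisons share arrays and are not independent. Per array, 18581 to 20466 of the 45281 probes exceeded background (41 to 45.2%), and 82 to 84 of the 84 tested genes did. The median difference between repeats for the 84 genes lay between 0.100 and 0.120 on the log2 scale, and the median standard error of a difference was 0.11.

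The respiratory chain moves electrons from NADH, through complex I, and from succinate, through complex II, to complex III, then by cytochrome c to complex IV, which reduces oxygen. Complexes I, III and IV pump protons across the inner mitochondrial membrane, and ATP synthase uses the gradient to make ATP. Resting and memory T cells are known for oxidative metabolism and newly activated effector cells for glycolysis. Most of the subunits are encoded in the nucleus, and several subunits of complex IV exist as a widely expressed form and a form restricted to a tissue such as muscle or testis.

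In Th9 against Th1, 5 of the 84 genes were called, 5 higher and 0 lower, which is 5.95% of them beside 10.7% of all genes tested (5.85% higher and 4.85% lower). In Th9 against Th17, 11 were higher and 1 lower, 14.3% beside 19% (10% higher and 8.95% lower). In Th17 against Th1, 0 were higher and 7 lower, 8.33% beside 14.9% (7.53% higher and 7.42% lower). Of the called genes, those that led by size were the complex IV isoform Cox6b2 and the complex I assembly factor Ndufaf2, both lowest in Th17 cells. The remaining calls were at most 0.71 on the log2 scale. With this processing, no comparison called as large a share of these genes as of all genes. In Th9 against Th17 their share was the larger with the mean of all kept probes (17.9% beside 17.2%) and with no filter on dim probes (13% beside 11.1%). In Th17 against Th1 it was the larger without background correction (3.57% beside 2.6%). Each array holds RNA of many sorted cells, so fewer cells of a type and less RNA per cell cannot be told apart.

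**Figure D1:**
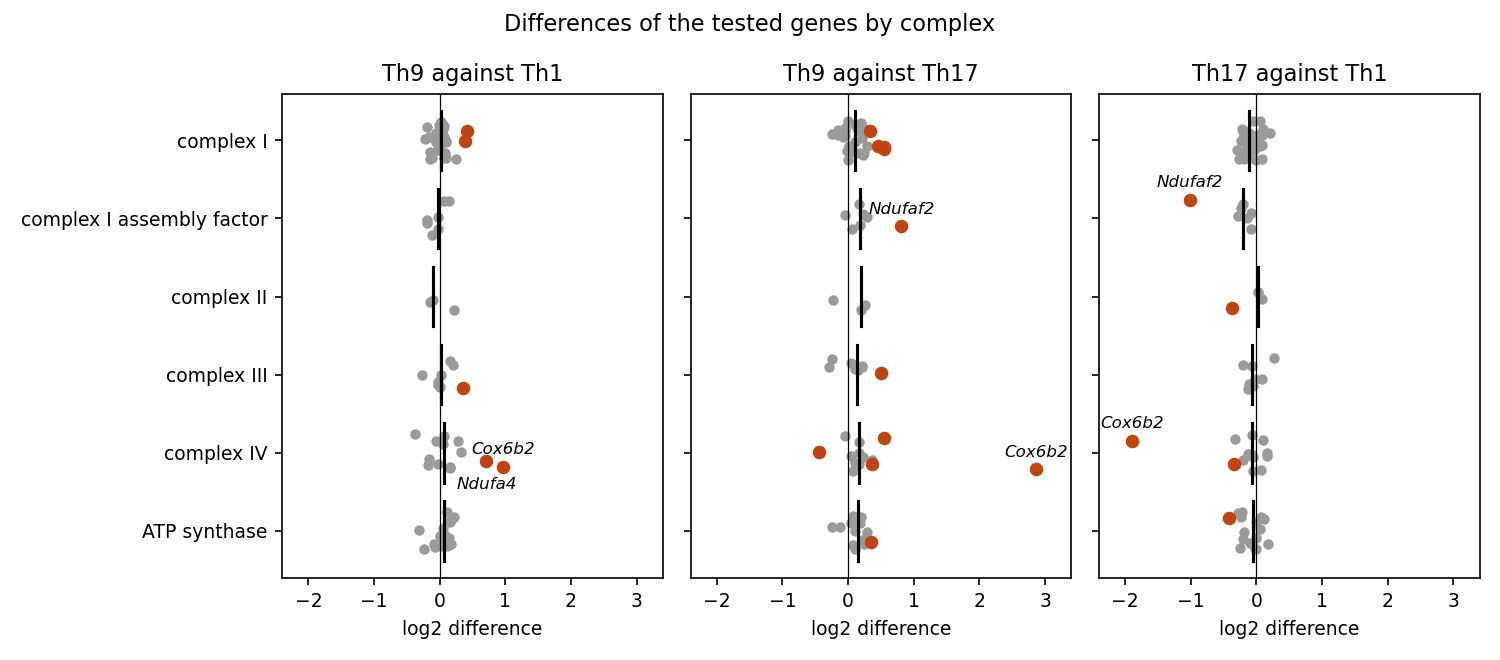
Log2 difference (horizontal axis) of each tested gene, by complex (rows), in the 3 comparisons. Orange points passed the adjusted threshold, grey points did not, and black bars mark the median of each complex under quantile normalisation. Most points lie within 0.5 of 0, and Cox6b2 and Ndufaf2 stand furthest out on the side of lower levels in Th17 cells.

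Cox6b2, the form of complex IV subunit 6b known from testis, gave the largest difference among these genes in all 3 comparisons. Its log2 level was 9.21 and 9.43 in Th9 cells, 8.31 and 8.39 in Th1 cells and 6.33 and 6.60 in Th17 cells. The 3 groups did not overlap, with Th9 highest, Th1 between and Th17 lowest. Before normalisation the intensities were 522.9 and 711.3 in Th9, 231.8 and 202.5 in Th1 cells and 23.9 and 40 in Th17, and all 6 lay above the background thresholds of 5.84 to 6.95. Th9 exceeded Th1 by 0.97 ± 0.12 (SE, 1.96-fold, adjusted p = 7.78e-06) and Th17 by 2.86 ± 0.12 (7.25-fold, adjusted p = 8.49e-13). Th17 against Th1 gave -1.89 ± 0.12 (adjusted p = 7.7e-10). The call against Th1 ended when the background correction was left out (adjusted p = 0.223), while both calls that involve Th17 held under all 16 alternative settings. Their size depended on the setting. Th9 against Th17 ran from 2.72 to 4.41 and Th17 against Th1 from -3.28 to -1.63. The Th17 intensities lie below the offset of 50 that the background correction adds, so the fold printed here is specific to this processing. The summed intensity of B cell markers had the same order of groups as Cox6b2, as had the plasma cell markers Irf4 and Mzb1. Their part in this result was not tested.

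Another probe annotated to Cox6b2 was above background on 1 array only, with intensities of 2.4 and 5.8 in Th9, -0.2 and 3.6 in Th1 cells and -3.4 and 7.6 in Th17, so the pattern of Cox6b2 rests on 1 probe. The widely expressed counterpart Cox6b1 had log2 levels of 11.89 and 12.08 in Th9, 11.76 and 11.91 in Th1 cells and 11.84 and 11.69 in Th17. Its differences of 0.15 against Th1 and 0.22 against Th17 did not pass the test (adjusted p = 0.524 and 0.23). Of the tested genes that flank Cox6b2 on chromosome 7, Tmem238 was higher in Th9 than in Th17 (0.70, adjusted p = 0.00115), Hspbp1 was lower in Th17 than in Th1 (-0.46, adjusted p = 0.0164), and Kmt5c and Rpl28 were not called in any comparison.

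The upstream sequences of Cox6b2 and Cox6b1 are shown because the pair encodes 2 forms of 1 subunit with different patterns here. Each is the 250 bases before the gene start in RefSeq (GRCm38.p6), read 5′ to 3′ on the gene's strand, with Cox6b2 at chr7:4753095-4753344 and Cox6b1 at chr7:30626115-30626364, both on the minus strand. Capitals mark a match on either strand to the ETS letters CCGGAAG.
Cox6b2: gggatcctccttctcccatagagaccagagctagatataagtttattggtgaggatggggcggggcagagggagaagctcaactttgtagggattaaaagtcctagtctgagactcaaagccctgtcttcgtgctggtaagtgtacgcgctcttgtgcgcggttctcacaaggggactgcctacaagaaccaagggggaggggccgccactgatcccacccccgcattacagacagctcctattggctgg
Cox6b1: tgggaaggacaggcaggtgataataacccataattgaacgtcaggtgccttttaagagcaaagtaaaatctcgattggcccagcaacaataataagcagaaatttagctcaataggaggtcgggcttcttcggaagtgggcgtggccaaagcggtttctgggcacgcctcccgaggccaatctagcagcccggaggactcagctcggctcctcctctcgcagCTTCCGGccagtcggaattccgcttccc
Cox6b1 holds 1 ETS match and Cox6b2 holds no match to the ETS letters, to the NRF1 letters (GCGCA, any 1 base, then GCGC) or to the YY1 letters AAGATGGC. ETS-family factors, NRF1 and YY1 are known activators of nuclear genes for mitochondrial proteins. A match is a description of letters and not of binding.

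Ndufaf2, an assembly factor of complex I and a paralog of the subunit Ndufa12, was lower in Th17 than in both other groups. Its log2 level was 8.18 and 8.21 in Th9, 8.41 and 8.38 in Th1 cells and 7.31 and 7.45 in Th17. The Th17 arrays lay apart below the other 4. Th9 against Th17 gave 0.81 ± 0.11 (1.76-fold, adjusted p = 1.05e-05) and Th17 against Th1 gave -1.01 ± 0.11 (adjusted p = 1.07e-06), and both calls held under all 16 alternatives. Th9 against Th1 gave -0.20 ± 0.11 and was not called (adjusted p = 0.306). Among the flanking tested genes, Ercc8 was not called in any comparison, while Zswim6 and Depdc1b gave lower levels in Th9 than Th17 (-0.52 and -0.67, adjusted p = 0.00483 and 0.000137) and Smim15 was higher in Th17 than in Th1 (0.50, adjusted p = 0.00279). The annotated gene Gm52057 overlaps Ndufaf2, and which of these transcripts the probe reads was not tested.

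The 250 bases of the upstream entry of Ndufaf2 (chr13:108158626-108158875, minus strand, GRCm38.p6) are given for the same reason as those of Cox6b2. The annotated gene reaches position 108158652, so its first bases lie inside this stretch, unlike those of Cox6b2 and Cox6b1.
Ndufaf2: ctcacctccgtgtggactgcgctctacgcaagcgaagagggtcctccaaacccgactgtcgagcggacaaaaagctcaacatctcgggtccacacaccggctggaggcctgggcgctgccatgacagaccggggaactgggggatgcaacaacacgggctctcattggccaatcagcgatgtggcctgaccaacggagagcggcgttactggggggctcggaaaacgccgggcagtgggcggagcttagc
The 250 bases hold no match to the NRF1, ETS or YY1 letters.

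None of the other 6 Ndufaf genes tested was called in any comparison, Ndufaf1, Ndufaf3, Ndufaf4, Ndufaf5, Ndufaf7 and Ndufaf8. Ndufaf8 gave 0.29 ± 0.11 in Th9 against Th17 (adjusted p = 0.0681), and Ndufaf6 was above background on 1 array and was not tested. Ndufa12, the paralog of Ndufaf2, gave 0.07 in Th9 against Th1 and 0.18 in Th9 against Th17, neither of them called (adjusted p = 0.816 and 0.374).

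**Figure D2:**
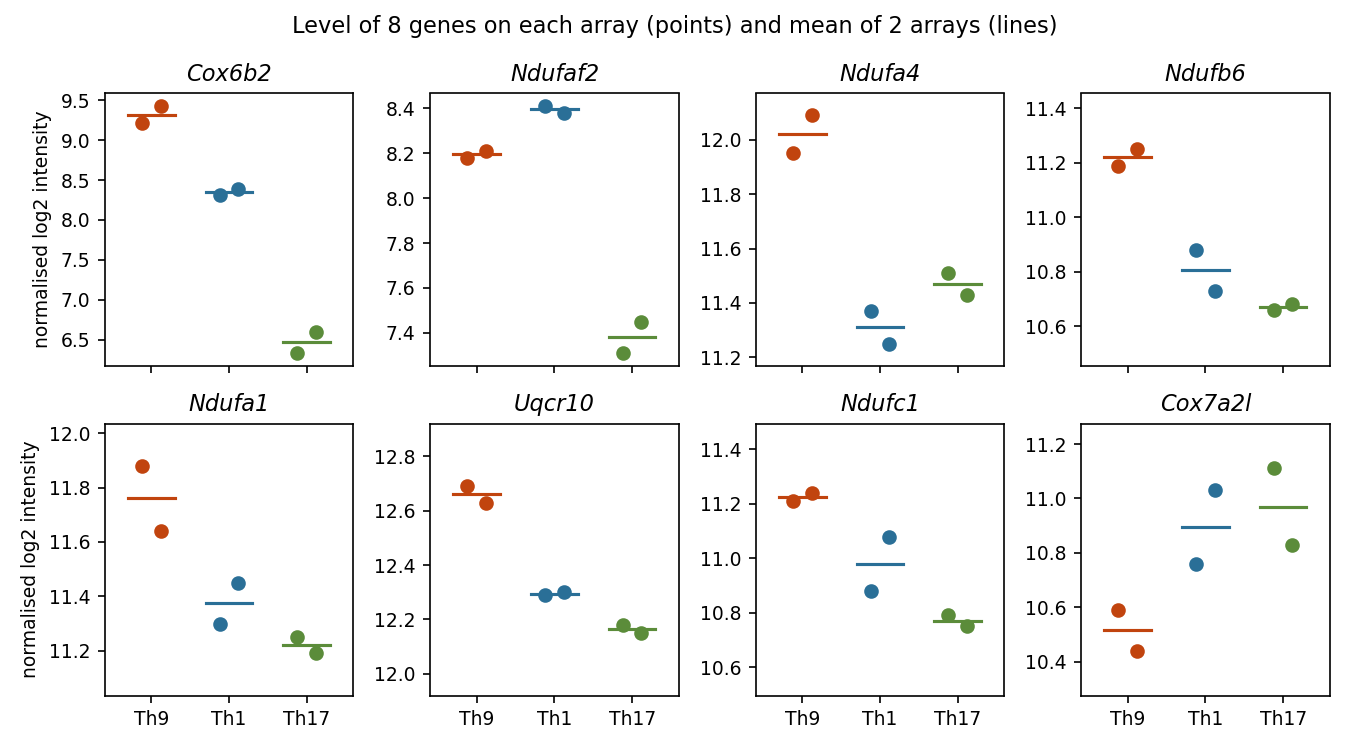
Normalised log2 intensity (vertical axis, a separate range for each gene) on each array (points) and the mean of the 2 arrays (lines) for 8 genes in Th9, Th1 and Th17 cells. Cox6b2 falls from 9.43 on the highest Th9 array to 6.33 on the lowest Th17 array, Ndufaf2 is lowest in Th17 cells, and Cox7a2l is lowest in Th9 cells.

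In complex I, 2 of 33 subunits were called in Th9 against Th1, both higher, and 4 in Th9 against Th17, all higher. In Th17 against Th1, 0 of the 33 were called by limma. That is 6.06%, 12.1% and 0% of the 33 in the 3 comparisons, beside 10.7%, 19% and 14.9% of all genes. The called genes are accessory subunits, apart from the core subunit Ndufv1. The log2 level of Ndufb6, a subunit of the membrane arm, was 11.19 and 11.25 in Th9, 10.88 and 10.73 in Th1 cells and 10.66 and 10.68 in Th17. Both Th9 arrays lay above the other 4. Ndufb6 was higher in Th9 by 0.42 ± 0.11 against Th1 (adjusted p = 0.0154) and by 0.55 ± 0.11 against Th17 (adjusted p = 0.000863). Its call against Th1 ended without Th9 replicate 1, Th9 replicate 2 or Th1 replicate 2 (0.34 to 0.44, adjusted p = 0.0677 to 0.123).

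Ndufa1, a small membrane subunit encoded on the X chromosome, had log2 levels of 11.88 and 11.64 in Th9, 11.30 and 11.45 in Th1 cells and 11.25 and 11.19 in Th17. The Th9 arrays again lay above the other groups. The differences were 0.39 ± 0.12 against Th1 (adjusted p = 0.0346) and 0.54 ± 0.12 against Th17 (adjusted p = 0.00191). The call against Th17 ended without Th9 replicate 1 (0.42, adjusted p = 0.0593), and the call against Th1 ended without Th9 replicate 1, Th1 replicate 1 or either Th17 array (adjusted p = 0.0559 to 0.356).

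Ndufc1, another accessory subunit, had log2 levels of 11.21 and 11.24 in Th9, 10.88 and 11.08 in Th1 cells and 10.79 and 10.75 in Th17. Th9 arrays were the highest and Th17 arrays the lowest. Under quantile normalisation only Th9 against Th17 was called (0.45 ± 0.11, adjusted p = 0.00568), which ended without Th17 replicate 2 (0.43). With median scaling Ndufc1 was called in Th9 against Th1 instead (0.48, adjusted p = 0.0203). Ndufv1, which binds NADH and the flavin of complex I, had log2 levels of 10.67 and 10.75 in Th9, 10.52 and 10.71 in Th1 cells and 10.45 and 10.29 in Th17. Its difference of 0.34 ± 0.11 against Th17 (adjusted p = 0.0443) was the smallest call of the complex and ended without either Th9 or either Th17 array (0.25 to 0.42, adjusted p = 0.0703 to 0.334).

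Most complex I subunits differed little under quantile normalisation, as did most genes tested. In Th9 against Th1, 31 of the 33 subunits differed by under 0.25 on the log2 scale, while 28 did so in Th9 against Th17 and 31 in Th17 against Th1. Of all 12093 genes, 9599, 8739 and 9077 did so in these comparisons. With median scaling, Ndufa6, Ndufa9, Ndufa11, Ndufb5 and Ndufs3 were called higher in Th17 than in Th1 (0.42 to 0.57). Ndufa9, at the joint of the peripheral and membrane arms, gave 0.04 ± 0.11 in Th9 against Th1 and -0.05 ± 0.11 in Th9 against Th17. Ndufb8, whose protein is a common marker of assembled complex I, gave 0.01 ± 0.11 and 0.21 ± 0.11. Neither gene was called in these comparisons under quantile normalisation. Ndufs1, which carries iron-sulphur clusters, was above background on 1 array only and was not tested, and Ndufa4l2 had no named probe.

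The 250 bases upstream of Ndufb6 (chr4:40279422-40279671, minus strand, GRCm38.p6) are shown as the upstream sequence of the complex I subunit with the lowest adjusted p against Th17. Capitals mark a match to CTTCCGG, the ETS letters on the other strand.
Ndufb6: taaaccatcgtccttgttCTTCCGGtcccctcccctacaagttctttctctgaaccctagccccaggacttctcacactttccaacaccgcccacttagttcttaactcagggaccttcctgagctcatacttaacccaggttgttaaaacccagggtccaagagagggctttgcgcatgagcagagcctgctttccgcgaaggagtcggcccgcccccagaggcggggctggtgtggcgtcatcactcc
The upstream sequences of Ndufa1, Ndufa4 and Uqcr10, the other genes called in Th9 against Th1 apart from Cox6b2, hold no match to the NRF1, ETS or YY1 letters.

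In complex II, which also serves the tricarboxylic acid cycle, 3 of 4 subunits were tested. Under quantile normalisation 1 was called, in Th17 against Th1 (33.3% of the 3, beside 14.9% of all genes). The log2 level of Sdhd, a membrane anchor, was 7.78 and 7.62 in Th9, 7.68 and 7.92 in Th1 cells and 7.45 and 7.42 in Th17. Th17 arrays were the lowest, and Sdhd was lower in Th17 than in Th1 (-0.37 ± 0.12, adjusted p = 0.0351), a call that ended without Th1 replicate 2, Th17 replicate 1 or Th17 replicate 2 (adjusted p = 0.132 to 0.259) and with median scaling (-0.04, adjusted p = 0.88). Sdhb, the iron-sulphur subunit, gave -0.15 ± 0.11 in Th9 against Th1 and -0.23 ± 0.11 in Th9 against Th17, and Sdhc, the other anchor, gave 0.22 ± 0.12 and 0.19 ± 0.12, none of them called under quantile normalisation. With median scaling Sdhc was called higher in Th9 than in Th1 (0.47, adjusted p = 0.0441) and Sdhb higher in Th17 than in Th1 (0.41, adjusted p = 0.0492). Sdha, the flavoprotein that oxidises succinate, was above background on 1 array and was not tested.

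In complex III, 1 of 8 subunits was called in each comparison with Th9 (12.5%, beside 10.7% and 19% of all genes). The only one called in any comparison was Uqcr10, a small subunit of the complex. Its log2 level was 12.69 and 12.63 in Th9, 12.29 and 12.30 in Th1 cells and 12.18 and 12.15 in Th17. The groups did not overlap and the repeats lay within 0.06 of each other. The differences were 0.36 ± 0.11 against Th1 (adjusted p = 0.0305) and 0.50 ± 0.11 against Th17 (adjusted p = 0.00189). The call against Th1 ended when any 1 of the 6 arrays was left out (0.34 to 0.39, adjusted p = 0.0501 to 0.183).

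Cyc1 and the core subunits of complex III were not called under quantile normalisation. Cyc1, the cytochrome that passes electrons to cytochrome c, gave 0.20 ± 0.11 in Th9 against Th1 and 0.11 ± 0.11 in Th9 against Th17. With median scaling it was called higher in Th9 and in Th17 than in Th1 (0.47 and 0.42, adjusted p = 0.0404 and 0.0481). Uqcrfs1, the Rieske iron-sulphur protein, was above background on 1 Th9, 1 Th1 and 0 Th17 arrays, with intensities of -4.5 to 11.1, so its differences are not read here. The core subunits Uqcrc1 and Uqcrc2 differed by -0.02 ± 0.11 and 0.15 ± 0.11 in Th9 against Th1 and by 0.05 ± 0.11 and 0.21 ± 0.11 in Th9 against Th17. Uqcrh, the hinge protein, was the gene of the complex that came nearest to a call in the other direction (Th9 against Th17 -0.29 ± 0.11, adjusted p = 0.0696).

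Complex IV held the widest spread. Of its 13 tested subunits, 2 were higher in Th9 than in Th1, 3 were higher and 1 lower in Th9 than in Th17, and 2 were lower in Th17 than in Th1. That is 15.4%, 30.8% and 15.4% of the 13, beside 10.7%, 19% and 14.9% of all genes. Ndufa4, first assigned to complex I and now counted with complex IV, had log2 levels of 11.95 and 12.09 in Th9, 11.37 and 11.25 in Th1 cells and 11.51 and 11.43 in Th17. Both Th9 arrays stood above the other 4. Ndufa4 was higher in Th9 by 0.71 ± 0.11 against Th1 (adjusted p = 0.000122) and by 0.55 ± 0.11 against Th17 (adjusted p = 0.00104), while Th17 and Th1 differed by 0.16 ± 0.11 (adjusted p = 0.397). With median scaling Ndufa4 was called higher in Th17 than in Th1 (0.48, adjusted p = 0.0282). The call in Th9 against Th1 held in 15 of 16 alternatives and ended without background correction (adjusted p = 0.103).

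With the processing reported, Cox7a2l, a relative of subunit 7a, was the only one of the 84 genes called lower in Th9 cells. With the mean of all kept probes, 1 gene was lower in Th9 than in Th1 and 3 were lower in Th9 than in Th17. The log2 level of Cox7a2l was 10.59 and 10.44 in Th9, 10.76 and 11.03 in Th1 cells and 11.11 and 10.83 in Th17. The Th9 arrays were the lowest, and Th9 against Th17 gave -0.45 ± 0.13 (adjusted p = 0.0134). Without Th9 replicate 2 or Th17 replicate 1 that call ended (-0.38 and -0.31, adjusted p = 0.139 and 0.225). Th9 against Th1 gave -0.38 ± 0.13, just short of the threshold (adjusted p = 0.0562), and passed it without Th1 replicate 1 (-0.52, adjusted p = 0.0205), with the mean of all kept probes (-0.34, adjusted p = 0.0422) and with trend and robust variance (-0.38, adjusted p = 0.0159). Over the 16 alternatives its adjusted p lay between 0.0159 and 0.446.

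Cox6a1, the widely expressed form of subunit 6a, had log2 levels of 11.86 and 11.94 in Th9, 11.60 and 11.65 in Th1 cells and 11.59 and 11.50 in Th17. Th9 lay above the others, and only the difference from Th17 was called (0.36 ± 0.11, adjusted p = 0.0232), which ended without either Th9 or either Th17 array (0.31 to 0.40, adjusted p = 0.0696 to 0.178). A second Cox6a1 probe was called in Th9 against Th1 (0.48), where the probe used was not (0.28 ± 0.11, adjusted p = 0.118). Cox5b, a nuclear subunit of the matrix side, had log2 levels of 12.28 and 12.13 in Th9, 12.44 and 12.33 in Th1 cells and 12.12 and 11.96 in Th17. Th17 arrays were the lowest, and Cox5b was lower in Th17 than in Th1 (-0.34 ± 0.11, adjusted p = 0.0453), and leaving out any 1 of the 6 arrays ended the call (adjusted p = 0.0552 to 0.342).

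The other named subunits of complex IV were not called under quantile normalisation. Cox4i1 gave -0.02 ± 0.11 in Th9 against Th1 and 0.04 ± 0.11 in Th9 against Th17, and Cox5a gave -0.06 ± 0.11 and 0.07 ± 0.11. Among the muscle forms, Cox6a2 was above background on the 2 Th9 arrays only, with intensities of 0.1 to 7.7 over the 6 arrays, so no difference is read from it. Cox7a1 gave 0.33 ± 0.13 and 0.16 ± 0.13, with log2 levels of 6.27 to 6.72. The widely expressed Cox7a2 gave 0.05 ± 0.11 and -0.05 ± 0.11, and with median scaling it was called higher in Th17 than in Th1 (0.40, adjusted p = 0.0388). Of the restricted forms Cox4i2, Cox7b2, Cox8b and Cox8c, none was above background on more than 1 array, so Cox6b2 was the only testis form among them with a measured level, and Cox8a had no named probe.

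For ATP synthase, 1 of 16 subunits was called in Th9 against Th17, 1 in Th17 against Th1 and 0 in Th9 against Th1. That is 6.25%, 6.25% and 0%, beside 19%, 14.9% and 10.7% of all genes. Atp5b, the catalytic beta subunit, had log2 levels of 13.42 and 13.48 in Th9, 13.18 and 13.41 in Th1 cells and 13.08 and 13.12 in Th17. Th17 arrays were the lowest, and Th9 exceeded Th17 by 0.35 ± 0.11 (adjusted p = 0.0316), a call that ended without either Th9 or either Th17 array (0.33 to 0.38, adjusted p = 0.0968 to 0.169). Atp5g2, one of the genes for the rotating c subunit, had log2 levels of 9.80 and 9.64 in Th9, 9.80 and 10.12 in Th1 cells and 9.51 and 9.55 in Th17. Its Th17 arrays were the lowest too, with -0.42 ± 0.12 in Th17 against Th1 (adjusted p = 0.0204), and the call ended without Th1 replicate 2 or either Th17 array (-0.44 to -0.26, adjusted p = 0.1 to 0.23) and with median scaling (-0.08, adjusted p = 0.751).

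Atp5g3, another gene for the c subunit, gave 0.12 ± 0.11 in Th17 against Th1 and was not called (adjusted p = 0.566), and Atp5g1 had no named probe. Atp5a1, the alpha subunit, gave 0.17 ± 0.12 in Th9 against Th1 and 0.11 ± 0.12 in Th9 against Th17, neither of them called. With median scaling Atp5a1 was called higher in Th9 and in Th17 than in Th1 (0.47 and 0.41, adjusted p = 0.0322 and 0.0476). For 15 of the 16 subunits in Th9 against Th1, and for 14 in each of the other comparisons, the 95% interval of the difference lay within 0.5 on the log2 scale on either side of 0, which is 1.41-fold. Over all 84 genes this held for 73 (86.9%) in Th9 against Th1, 63 (75%) in Th9 against Th17 and 71 (84.5%) in Th17 against Th1, beside 80.2%, 73% and 76% of all genes tested.

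The genes reached only through a synonym are given apart. Dmac2l, coupling factor B of ATP synthase, was higher in Th9 than in Th17 (0.32 ± 0.11, adjusted p = 0.0417) and lower in Th17 than in Th1 (-0.36 ± 0.11, adjusted p = 0.0253). Emc8, a member of the endoplasmic reticulum membrane complex and no mitochondrial subunit, was lower in Th17 than in Th1 (-0.48 ± 0.11, adjusted p = 0.00582). All 3 calls ended without at least 1 array, among them Th17 replicate 1 (adjusted p = 0.143, 0.109 and 0.0665). With the subunits alone the counts were 5 higher and 0 lower, 9 higher and 1 lower, and 0 higher and 4 lower of 73 in the 3 comparisons in the order above. That is 6.85%, 13.7% and 5.48% of the 73, beside 10.7%, 19% and 14.9% of all genes.

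Small differences of one sign were common between Th17 cells and the other groups under quantile normalisation. With median scaling the median difference shrank in Th9 against Th17 and changed direction in Th17 against Th1. In Th9 against Th17, 63 of the 84 genes lay above 0 with a median of 0.148 beside 0.006 for all genes, and the median was 0.044 beside -0.019 with arrays scaled to a common median. In Th17 against Th1, 61 lay below 0 with a median of -0.110 beside 0.004, and with median scaling the median turned to 0.180 beside 0.150. In Th9 against Th1, the median was 0.014 beside 0.012, and 0.217 beside 0.135 with median scaling. Median scaling moved the median of all genes by 0.123 in Th9 against Th1 and by 0.145 in Th17 against Th1. Relative to the median of all genes, the 84 genes differed by 0.002, 0.142 and -0.115 in the 3 comparisons under quantile normalisation and by 0.082, 0.063 and 0.030 under median scaling.

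Counts of arrays that did not overlap followed the same lines. In Th9 against Th17, both Th9 arrays lay above both Th17 arrays for 46 of the 84 genes (54.8%, beside 29% of all genes) and below them for 10 (11.9%, beside 26.8%), and with median scaling for 21 (25%, beside 22.5%) and 14 (16.7%, beside 28.6%). In Th17 against Th1 the Th17 arrays were the lower for 39 (46.4%, beside 25.6%) and the higher for 11 (13.1%, beside 27.2%), and with median scaling for 5 (5.95%, beside 9.15%) and 44 (52.4%, beside 49.6%). In Th9 against Th1 the Th9 arrays were the higher for 18 (21.4%, beside 25.9%) and the lower for 15 (17.9%, beside 21.8%), and with median scaling for 45 (53.6%, beside 44.9%) and 1 (1.19%, beside 8.05%). The mean intensity per array before normalisation was 117.1 and 140.6 in Th1, 139.7 and 157.8 in Th9, and 156.7 and 171.1 in Th17.

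**Figure D3:**
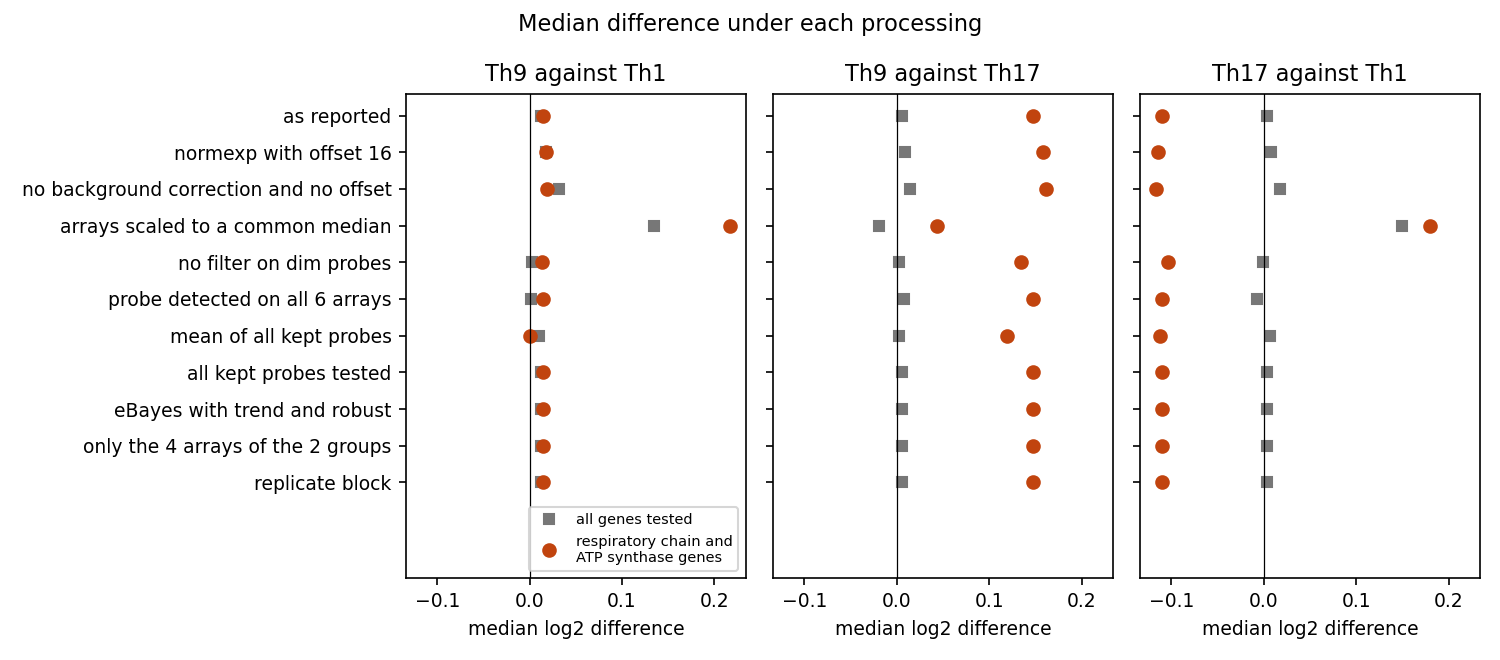
Median log2 difference (horizontal axis) of the 84 genes (orange circles) and of all genes tested (grey squares) in the 3 comparisons, as reported and under the 10 alternatives that keep all arrays of the groups compared (rows). Under scaling to a common median the Th17 against Th1 median of the 84 genes turned from -0.110 to 0.180, with all genes at 0.150.

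The scaling changed the calls as well. With arrays scaled to a common median, 9 of the 84 genes were called in Th9 against Th1 (10.7%, beside 14.3% of all genes), 9 higher and 0 lower. It called 3 in Th9 against Th17 (3.57%, beside 13.4%), 2 higher and 1 lower, and 16 in Th17 against Th1 (19%, beside 22.6%), 14 higher and 2 lower. The share of higher calls among all called genes moved with it from 54.7 to 89.2% in Th9 against Th1, from 52.9 to 43.1% in Th9 against Th17 and from 50.4 to 91% in Th17 against Th1. Of the 24 calls on these genes, 4 held under all 16 alternatives, those of Cox6b2 and Ndufaf2 in both comparisons that involve Th17. Leaving out the background correction ended 18 of the 24, median scaling ended 14, a lower offset ended 12, and 15 ended when some 1 array was left out. In Th17 against Th1, median scaling ended each call but those of Cox6b2 and Ndufaf2. In Th9 against Th17 it ended the calls of Ndufa4, Ndufb6, Ndufa1, Uqcr10, Ndufc1, Cox6a1, Atp5b, Ndufv1 and Dmac2l and kept that of Cox7a2l (-0.60, adjusted p = 0.00642).

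Of the 84 genes, 28 had more than 1 usable probe. In Th9 against Th17, all 5 other probes of called genes were called in the same direction. In Th9 against Th1, 1 of 2 was, the other being Ndufb6 (0.32), and in Th17 against Th1, 0 of 2, Cox5b (-0.31) and Emc8 (-0.29). A second probe was called where the one used was not for Ndufa5 (-0.38 in Th9 against Th1 and -0.42 in Th17 against Th1) and for Atp5pb (0.39 in Th9 against Th17), besides Cox6a1. Ndufs5-ps, the pseudogene, was not called, and whether other probes also read transcripts of pseudogenes was not tested.

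The groups also differed in markers of other cell types, and their part in the results above was not tested. All 9 T cell markers on the array were above background on every array, with a summed intensity of 17620 to 18800 in Th9, 15520 to 19270 in Th1 and 26530 to 27880 in Th17, and 6 of the 9 were called lower in Th9 than in Th17. Of 12 B cell markers, 10 had a probe and 8 were tested, with 5 higher in Th9 than in Th17 and 6 lower in Th17 than in Th1. Their summed intensity was 3152 and 3971 in Th9, 2268 and 2004 in Th1 cells and 573.4 and 493.8 in Th17. Igkc, an immunoglobulin light chain, led with 3.59 in Th9 against Th17 (adjusted p = 3.22e-14), while Pax5, a defining B cell factor, was above background on no array and Ms4a1 on 1.

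By summed intensity, other marker lists were smaller or ran in another order. The 7 plasma cell markers summed to 4142 and 5127 in Th9, 1989 and 1572 in Th1 cells and 3052 and 2618 in Th17, most of it Xbp1, which T cells also express, and Prdm1 and Tnfrsf17 were above background on no array. Erythroid markers summed to 628.4 and 677.9 in Th9, 44.5 and 47.5 in Th1 cells and 82.5 and 142 in Th17. Most of the Th9 sum was Hba-a1, higher in Th9 than in Th1 by 2.99 (adjusted p = 1.23e-13), and Hbb-b1 was higher by 0.63 (adjusted p = 0.000341). Slc4a1 was not called, with mean log2 levels of 6.32 in Th9 and 6.43 in Th1. Hbb-b2, Alas2 and Epb42 were above background on no array. Summed CD8 T cell markers were 1145 and 1261 in Th9, 1164 and 1043 in Th1 cells and 717.8 and 556.9 in Th17. Nearly all of this was Cd8b1, and Cd8a was above background on no array. NK cell markers summed to 285.5 to 378.2, 365.1 to 466.5 and 804.9 to 877.6, and myeloid markers to 646.6 to 803.7, 658.8 to 811.7 and 906.8 to 1003, in the same order of groups. Most of the NK cell sum was Klrd1, and Ncr1 was above background on no array. Granulocyte markers reached at most 115.7 and melanocyte markers 18.3 on any array.

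Several genes that help build the complexes were called. Of 22 assembly factors of complex IV, 4 were higher and 1 lower in Th9 than in Th17 (22.7%, beside 19% of all genes), or 1 and 1 with median scaling. Against Th1, Th9 gave 1 higher and 3 lower calls (18.2%, beside 10.7% of all genes). Th17 gave 2 higher and 5 lower calls against Th1 (31.8%, beside 14.9%). With arrays scaled to a common median each gave 4 higher and 0 lower, where 14.3% and 22.6% of all genes were called. Sco1 and Cox17, which bring copper to complex IV, were higher in Th9 than in Th17 by 0.77 ± 0.11 and 0.53 ± 0.12 (adjusted p = 3.32e-05 and 0.00352), and with median scaling the call of Sco1 held and that of Cox17 ended (0.37, adjusted p = 0.181). Cmc2 was lower in Th9 than in Th1 by a log2 difference of -0.72 ± 0.11 (adjusted p = 0.00018), or -0.45 with median scaling (adjusted p = 0.051). Of 4 assembly factors of complex II, Sdhaf1 was higher in Th9 than in both other groups (0.71 ± 0.11 and 0.56 ± 0.11, adjusted p = 7.85e-05 and 0.000591), and Sdhaf4 was lower in Th17 than in Th1 (-0.85 ± 0.12, adjusted p = 5.5e-05). Of 4 factors of complex III, Ttc19 was higher in Th9 than in Th17 (0.80 ± 0.11, adjusted p = 2.15e-05), and of 9 further factors of complex I only Foxred1 was called (Th9 against Th1 -0.45 ± 0.13, adjusted p = 0.0331), which ended with median scaling (-0.16, adjusted p = 0.506). For these assembly factors and the wider lists, median scaling was the only alternative run.

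Cycs, cytochrome c itself, had log2 levels of 10.35 and 10.11 in Th9, 10.22 and 10.06 in Th1 cells and 9.81 and 9.73 in Th17, and was lowest in Th17 (Th9 against Th17 0.46 ± 0.12, adjusted p = 0.00728, and Th17 against Th1 -0.37 ± 0.12, adjusted p = 0.0372). Both calls of Cycs ended with median scaling (0.34 and -0.02, adjusted p = 0.159 and 0.961). Atpif1, the inhibitor of ATP synthase, had log2 levels of 12.49 and 12.42 in Th9, 12.18 and 12.56 in Th1 cells and 11.83 and 11.76 in Th17. It too was lowest in Th17 (0.66 ± 0.12 and -0.58 ± 0.12, adjusted p = 0.000487 and 0.00246), and the call of Atpif1 in Th17 against Th1 ended with median scaling (-0.34, adjusted p = 0.0703). Ckmt1, the mitochondrial creatine kinase that takes up ATP made by oxidative phosphorylation, had log2 levels of 9.47 and 9.38 in Th9, 8.53 and 8.70 in Th1 cells and 6.69 and 6.66 in Th17. Its differences of 0.81 ± 0.11, 2.75 ± 0.11 and -1.94 ± 0.11 in the 3 comparisons were close in size to those of Cox6b2 (adjusted p = 2.53e-05, 5.11e-13 and 1.42e-10).

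Among the wider mitochondrial lists, 72 genes of the mitochondrial ribosome gave 2 higher and 2 lower calls in Th9 against Th1 (5.56%, beside 10.7% of all genes). They gave 8 higher and 2 lower in Th9 against Th17 (13.9%, beside 19%), and 1 higher and 13 lower in Th17 against Th1 (19.4%, beside 14.9%). With arrays scaled to a common median the Th17 against Th1 calls turned to 7 higher and 0 lower. There 22.6% of all genes were called, 91% of them higher. Mrps6, of the small subunit of the mitochondrial ribosome, was higher in Th9 than in Th17 by 1.08 ± 0.11 (adjusted p = 2.04e-07). Of 15 genes of the tricarboxylic acid cycle and its entry, Pdha1 was higher than in Th1 both in Th9 (0.60 ± 0.15, adjusted p = 0.014) and in Th17 (0.60 ± 0.15, adjusted p = 0.0106). Suclg2 was higher in Th9 than in Th17 (0.49 ± 0.11, adjusted p = 0.00263). Idh2 was lower in Th17 than in Th1 (-0.38 ± 0.12, adjusted p = 0.0344), which ended with median scaling (-0.03, adjusted p = 0.904). Of 8 regulators of mitochondrial biogenesis, Ppargc1b was lower and Pprc1 higher in Th9 than in Th17 (-0.48 ± 0.11 and 0.40 ± 0.11, adjusted p = 0.00511 and 0.0108), and the call of Pprc1 ended with median scaling (0.34, adjusted p = 0.141). Of 12 genes for mitochondrial DNA and its transcription, 2 were higher in Th9 than in Th17 (16.7% called, beside 19% of all genes). Top1mt, a topoisomerase, led them (0.47 ± 0.12, adjusted p = 0.00947) and alone was called with median scaling. Of 10 genes that shape the inner membrane, Chchd6 was higher in Th9 than in Th17 (0.68 ± 0.13, adjusted p = 0.000591), and of 5 antioxidant genes Txnrd2, a thioredoxin reductase, was (0.66 ± 0.12, adjusted p = 0.000425). Of 8 carriers and porins, the porin Vdac2 was lower in Th17 than in Th1 (-0.40 ± 0.11, adjusted p = 0.02). With median scaling the Vdac2 call ended (-0.05, adjusted p = 0.848) and Vdac3 was called higher in Th17 (0.54, adjusted p = 0.00794).

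Genes of glycolysis, the other main route to ATP, gave 0 of 16 calls in Th9 against Th1, beside 10.7% of all genes. They gave 1 higher and 2 lower in Th9 against Th17 (18.8%, beside 19%), and 5 higher and 0 lower in Th17 against Th1 (31.2%, beside 14.9%). With median scaling the counts were 5 higher and 0 lower, 0 higher and 3 lower, and 9 higher and 0 lower. There 14.3%, 13.4% and 22.6% of all genes were called. Aldoc, an aldolase, and Slc2a3, a glucose transporter, were higher in Th17 than in Th1 by 1.27 ± 0.11 and 1.21 ± 0.11 (adjusted p = 5.74e-08 and 6.23e-08). The same pair was lower in Th9 than in Th17 (-0.94 ± 0.11 and -0.92 ± 0.11, adjusted p = 2.08e-06 and 1.84e-06).

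**Figure D4:**
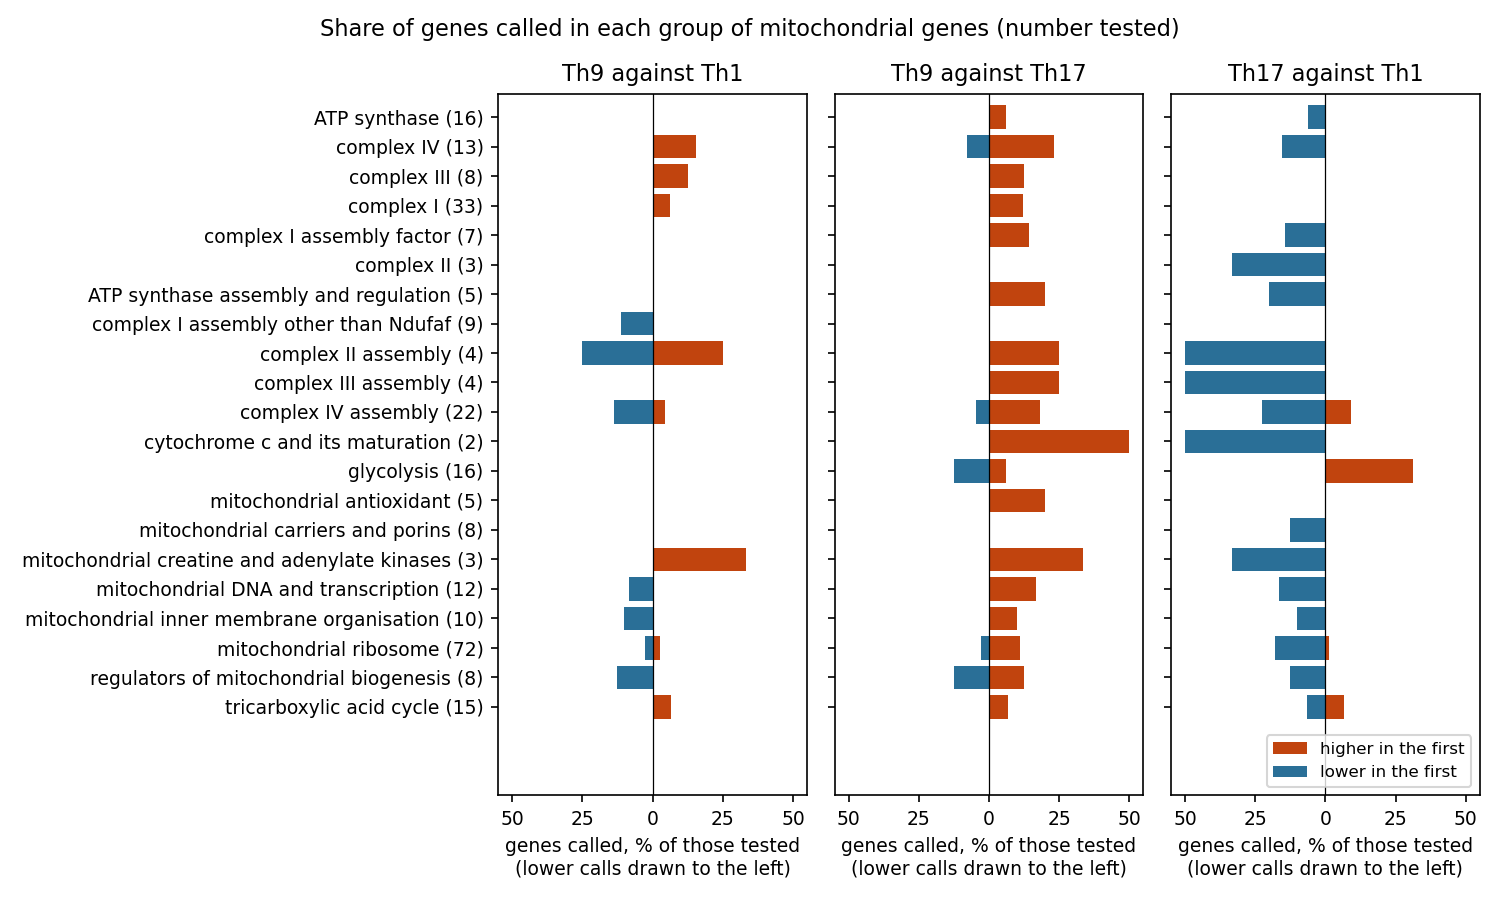
Percent of tested genes called in each group of mitochondrial or glycolytic genes (horizontal axis), with calls higher in the first group drawn to the right in orange and lower to the left in blue, and the number of genes tested in parentheses. Complex I has no bar in Th17 against Th1, where glycolysis has bars to the right only, and lists of 2 to 5 genes reach large shares with 1 or 2 calls. All bars are under quantile normalisation, and with median scaling the calls of the mitochondrial ribosome in Th17 against Th1 turned to 7 higher and 0 lower.

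Upstream sequences were available for 71 of the 84 genes. The NRF1 letters, on either strand, stood in the 250 bases upstream of 12 of them (16.9%), beside 8.69% of the 9579 tested genes with an entry and 4.23% of all 27025 genes with one. The ETS letters stood in 14 (19.7%, beside 15% of tested genes) and the YY1 letters in 2 (2.82%, beside 2.18%). Of the 12 genes with the NRF1 letters, 3 were called, Cox6a1 in Th9 against Th17 and Atp5g2 and Sdhd in Th17 against Th1. Of the 84 genes, 5.95%, 14.3% and 8.33% were called in the 3 comparisons, beside 10.7%, 19% and 14.9% of all genes. These shares are for single comparisons and are no base for the 3 of 12, which pools the comparisons. Whether the letters go with the calls was not tested. Cox6b2, Ndufaf2 and Ndufa4, with the largest differences, do not hold them in this window. The windows of the 3 called genes and of Ndufb4, which holds 3 matches and was not called, show the motif in capitals with the bases on either side, 5′ to 3′ on the strand of the gene (RefSeq, GRCm38.p6).
Cox6a1, chr5:115349056-115349085: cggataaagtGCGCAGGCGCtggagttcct
Cox6a1, chr5:115349101-115349130: caggaacgggGCGCATGCGCgctctcgctc
Atp5g2, chr15:102671070-102671099: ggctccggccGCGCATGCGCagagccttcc
Sdhd, chr9:50603909-50603938: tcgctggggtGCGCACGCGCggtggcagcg
Ndufb4, chr16:37654371-37654400: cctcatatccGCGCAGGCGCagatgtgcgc
Ndufb4, chr16:37654428-37654457: ccttgtgcgcGCGCAGGCGCacttcctgag
Ndufb4, chr16:37654540-37654569: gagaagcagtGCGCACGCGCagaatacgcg
All 7 windows lie on genes of the minus strand. The motif begins 117 and 162 bases before the start of Cox6a1, 42 before that of Atp5g2, 79 before that of Sdhd, and 22, 79 and 191 before that of Ndufb4. Cox6a1 was higher in Th9 than in Th17, Atp5g2 and Sdhd were lower in Th17 than in Th1, and the differences of Ndufb4 were -0.16, 0.02 and -0.18 in the 3 comparisons.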

How the data were processed

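Cells of 3 groups were measured on 6 Illumina bead arrays. Per the labels, total RNA was extracted with Trizol and an RNeasy kit and amplified to biotinylated cRNA. The deposited value table holds a linear intensity per probe from which a background had been subtracted. This scale was read from the values, many of them below 0, and no source used here gives the authors' own scaling. A further 12 deposited columns have names that match no label and were not used.

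Values were corrected with normexp (offset 50), quantile normalised and put on the log2 scale. A probe was above background on an array where its intensity exceeded a limit set from the values below 0, and probes above it on at least 2 arrays were kept (22460 of 45281). Genes were named through a RefSeq table (GRCm38.p6), and the brightest kept probe stood for a gene. A single limma 3.58.1 model (R 4.3.3) over the 6 arrays gave the 3 comparisons, with Benjamini-Hochberg adjustment over 12093 genes. The test had 3 residual and 16.2 prior degrees of freedom, and the number of arrays limits its precision. In each comparison of simulated data, 100 genes were shifted by 0.5 on the log2 scale and another 100 by 1. The test called 85 to 89 of the former, 100 of the latter and 9 to 13 of 11893 unshifted genes. The simulated noise was normal with the variances of the fit itself, so whether that noise model holds was not tested. Background correction and scaling were not part of the simulation.

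The genes and lists were chosen with earlier results of these data known. Named genes were those called, fixed key subunits and isoforms, and up to 3 called genes of each other list, from which a part is printed; the second probes, flanking genes, near-threshold genes, genes named only for a call under median scaling and Ndufa12, Atp5g3, Ndufb4, Uqcrh and Ndufaf8 were chosen after their values were seen. Repeats were not paired: their deviations correlated between groups by -0.021, -0.023 and 0.014. Alternatives changed the offset, the scaling, the background correction, the filter, the probes used, the variance model and the arrays fitted.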

Additional observations from a re-analysis of the deposited data

How the results depend on the processing

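All 16 alternatives were run, and none reversed a called difference of the 84 genes. For a gene not called in either setting, a change of sign was not counted. In the wider lists, set beside median scaling only, Pprc1 in Th17 against Th1 went from -0.35 (adjusted p = 0.0335) to 0.01 (adjusted p = 0.973). With an offset of 16, all genes called were 729 in Th9 against Th1 and 1114 in Th17 against Th1, and respiratory chain and ATP synthase genes called were 2 and 7 in Th9 against Th1 and against Th17 and 3 in Th17 against Th1, the order kept below. Without background correction all genes called were 237, 674 and 315 and those of the respiratory chain and ATP synthase 0, 3 and 3. With arrays scaled to a common median, the latter were 9, 3 and 16, their medians 0.217, 0.044 and 0.180, and all genes called in Th17 against Th1 were 2733. With trend and robust variance 8 were called in Th9 against Th1, and with the 4 arrays of those groups alone 3. The cause of these moves was not tested, except that fewer arrays enter the last. Leaving out 1 array gave 781 to 1177, 1424 to 2608 and 998 to 1683 genes called, 2 to 5, 7 to 13 and 2 to 6 of the respiratory chain and ATP synthase, and medians of -0.007 to 0.043, 0.11 to 0.152 and -0.144 to -0.08. In Th9 against Th1, Th9 replicate 1 left 2 and Th9 replicate 2, Th1 replicate 2, Th17 replicate 1 and Th17 replicate 2 left 3 each. In Th9 against Th17, Th17 replicate 1 left 7, and in Th17 against Th1, Th17 replicate 1 left 2 and Th1 replicate 2 and Th17 replicate 2 left 3 each. With the repeat as a replicate block, 5, 11 and 7 were called, and all genes called were 1258, 2249 and 1769.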
